A study of Mus musculus with 16 samples.

Results

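The 8 genes described here encode subunits of Polycomb repressive complex 2 (PRC2), though not all of them: Ezh2, Ezh1, Eed, Suz12, Jarid2, Aebp2, Mtf2 and Phf19. DNA single-strand breaks were mapped in mouse embryonic stem cells, and every break peak that shared at least 1 bp with the body of one of these genes, or with the 5 kb on either side of it, was taken (GENCODE M21 gene models on mm10). This gave 68 peaks of the 103545 in the 4 deposited peak lists. Peaks of different lists that shared at least 1 bp were joined, which left 34 regions at the 8 genes of 60797 in the genome. A region carries the name of its gene and a number that counts along the chromosome, so that Eed 2 is the middle of 3 regions at Eed.

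The cells were C57BL/6JRj embryonic stem cells kept without serum in 2i medium and LIF (1000 U/ml), either wild type (WT) or depleted of the thymine DNA glycosylase Tdg (KO). Cells of each genotype received the solvent DMSO or 5 nM of the PARP inhibitor Talazoparib for 24 h. According to the labels' protocol 4-OHT, at 5 µM for 2 h before each experiment, served to excise a Tdg minigene, and the labels do not say whether the WT cells received it. Each of the 4 conditions had 3 immunoprecipitated (IP) libraries and 1 input library, 16 in all, and the labels do not say whether the 3 came from separate cultures. Each list was made from the pooled libraries of its condition, so the files hold no spread between replicates and no test between conditions was possible. Intervals below cover counting error only, at the 95% level. The pooled IP depth, estimated from the step between low values, was 66400000 to 87000000 tags, and the input depth was 24500000 to 38100000. The WT libraries and the KO libraries were run on different flow cells, 2 for each genotype, so genotype and flow cell cannot be told apart. Peak lists hold no RNA, so neither the cell type nor the loss of Tdg was checked here.

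PRC2 methylates histone H3 on lysine 27, the mark of facultative heterochromatin, and in embryonic stem cells it keeps developmental genes with CpG-rich promoters silent. Ezh2 or its paralogue Ezh1 is the methyltransferase, Suz12 is the scaffold, and Eed binds the methylated histone and stimulates the enzyme. The core associates either with a Polycomb-like protein such as Mtf2 or Phf19, or with Jarid2 and Aebp2. In the assay, DNA polymerase I incorporated digoxigenin-labelled nucleotides at nicks, and an antibody recovered the labelled fragments. Tdg removes thymine mispaired with guanine, and some oxidised forms of methylcytosine, from DNA. It leaves sites that base excision repair opens into single-strand breaks. Talazoparib inhibits PARP1, a sensor of such breaks, and traps it on DNA.

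Of the 34 regions, 6 were present in all 4 lists, and the sequences of 4 of these are shown because they are the places where breaks were listed whatever the condition. CpG dinucleotides are in capitals, and each sequence is read 5′ to 3′ along its gene. The stretch before the start of Suz12 (chr11:79992856-79993105, plus strand) and that before the start of Eed (chr7:89980984-89981226, minus strand) are RefSeq promoter windows on GRCm38.p6, without their transcribed part. The stretch of Jarid2 2 (chr13:44733501-44733800, plus strand) lies in the first part of the Jarid2 gene outside any annotated exon of it. The stretch of Phf19 1 (chr2:34905271-34905570, minus strand) begins in a coding exon and runs into the intron that follows. The last 2 are the central 300 bases common to the peaks of all 4 lists.
Suz12 promoter: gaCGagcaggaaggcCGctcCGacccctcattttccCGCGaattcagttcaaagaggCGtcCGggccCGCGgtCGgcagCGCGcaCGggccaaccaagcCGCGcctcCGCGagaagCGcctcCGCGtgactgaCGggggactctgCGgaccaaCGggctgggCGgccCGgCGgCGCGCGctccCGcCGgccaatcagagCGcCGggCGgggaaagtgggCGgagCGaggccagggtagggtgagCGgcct
Eed promoter: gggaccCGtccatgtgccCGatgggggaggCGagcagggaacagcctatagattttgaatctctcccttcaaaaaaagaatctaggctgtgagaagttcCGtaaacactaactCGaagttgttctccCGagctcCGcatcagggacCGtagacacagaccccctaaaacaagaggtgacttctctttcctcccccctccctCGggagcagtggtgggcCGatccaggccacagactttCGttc
Jarid2 2: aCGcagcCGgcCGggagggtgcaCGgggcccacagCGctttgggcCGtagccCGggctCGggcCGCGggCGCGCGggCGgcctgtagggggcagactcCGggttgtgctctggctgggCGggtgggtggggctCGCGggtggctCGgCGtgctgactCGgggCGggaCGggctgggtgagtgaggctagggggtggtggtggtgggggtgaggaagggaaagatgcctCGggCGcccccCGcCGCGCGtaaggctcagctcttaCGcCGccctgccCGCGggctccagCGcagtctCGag
Phf19 1: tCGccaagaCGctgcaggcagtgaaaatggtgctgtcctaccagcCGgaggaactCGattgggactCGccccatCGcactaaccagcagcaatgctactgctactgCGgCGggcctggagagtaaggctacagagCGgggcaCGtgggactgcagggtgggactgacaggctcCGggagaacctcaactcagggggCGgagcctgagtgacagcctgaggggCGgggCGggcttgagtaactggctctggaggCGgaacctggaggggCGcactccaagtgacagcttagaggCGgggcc
The sequences differ in CpG content. The Suz12 stretch held 37 CpGs in 250 bases, the Jarid2 stretch 35 in 300, the Phf19 stretch 17 in 300 and the Eed stretch 11 in 243.

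Breaks were listed at nearly every PRC2 gene in every condition. Of the peaks at these genes, 5 of 17 with DMSO and 5 of 15 with Talazoparib in WT covered a coding start, and 8 of 19 and 8 of 17 in KO. The median tag count of these start peaks was above that of the other peaks in each list. In WT cells with DMSO 7 of the 8 genes had a peak, against 60.9% of all protein-coding genes, and all 8 had one in the other lists. Of all protein-coding genes, 48.8% had a peak in WT with Talazoparib, 66.8% in KO with DMSO and 58.9% in KO with Talazoparib. Longer genes offer more room for a peak. Among the 9021 protein-coding genes within the range of lengths of the 8, the shares were 72.4%, 60.1%, 78.1% and 70.3%, in the order WT DMSO, WT with Talazoparib, KO DMSO, KO with Talazoparib; values given without names below keep this order. Peaks in all 4 lists were found for 7 of the 8 genes, against 39.0% of all genes and 49.0% of those of similar length. The exception was Mtf2, which had no peak in WT DMSO.

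The number of peaks at the 8 genes was 17 with DMSO and 15 with Talazoparib in WT, and 19 and 17 in KO. Per 100 kb of gene and flank this was 3.04, 2.68, 3.40 and 3.04 peaks, against 2.16, 1.25, 2.70 and 1.87 over all protein-coding genes. Over the genes of similar length it was 2.37, 1.35, 2.97 and 2.04. Ezh2, Ezh1 and Suz12 had 1 peak in each list and Eed had 2, counts that 1380 and 161 genes of the genome share. Jarid2 had 6 and 3 peaks in WT without and with Talazoparib and 6 and 2 in KO, and in the same order Aebp2 had 3, 4, 3 and 5. Mtf2 had 0, 2, 3 and 2, and Phf19 had 3, 1, 2 and 3. The even counts of the core genes depended on the window and the fold limit. With the gene body alone as the window Eed had 1, 2, 2 and 2, and at a fold of at least 6 Ezh1 had 0, 0, 1 and 0, Suz12 0, 1, 0 and 0, and Ezh2 1, 0, 1 and 1. Equal counts were also not always the same places, since the WT DMSO list held Ezh1 1 and Eed 3 where the other lists held Ezh1 2 and Eed 1.

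A peak covered the start of a protein-coding transcript at 5 genes with DMSO and 5 with Talazoparib in WT, and 7 and 8 in KO. The matching shares of all protein-coding genes were 39.1%, 30.1%, 48.2% and 38.7%. Suz12, Eed and Jarid2 had such a start peak in all 4 lists, Ezh2, Ezh1 and Mtf2 in 3, and Aebp2 and Phf19 in 2. RefSeq gives 12 promoter windows for the 8 genes, of which 6, 7, 8 and 8 were touched by a peak in the same order of lists. Of all 32851 windows the lists touched 28.5%, 21.5%, 35.7% and 28.3%. The map of peaks along each gene shows the column of circles at the start that recurs from gene to gene, and the scattered single circles inside Jarid2 and Aebp2.

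**Figure D1:**
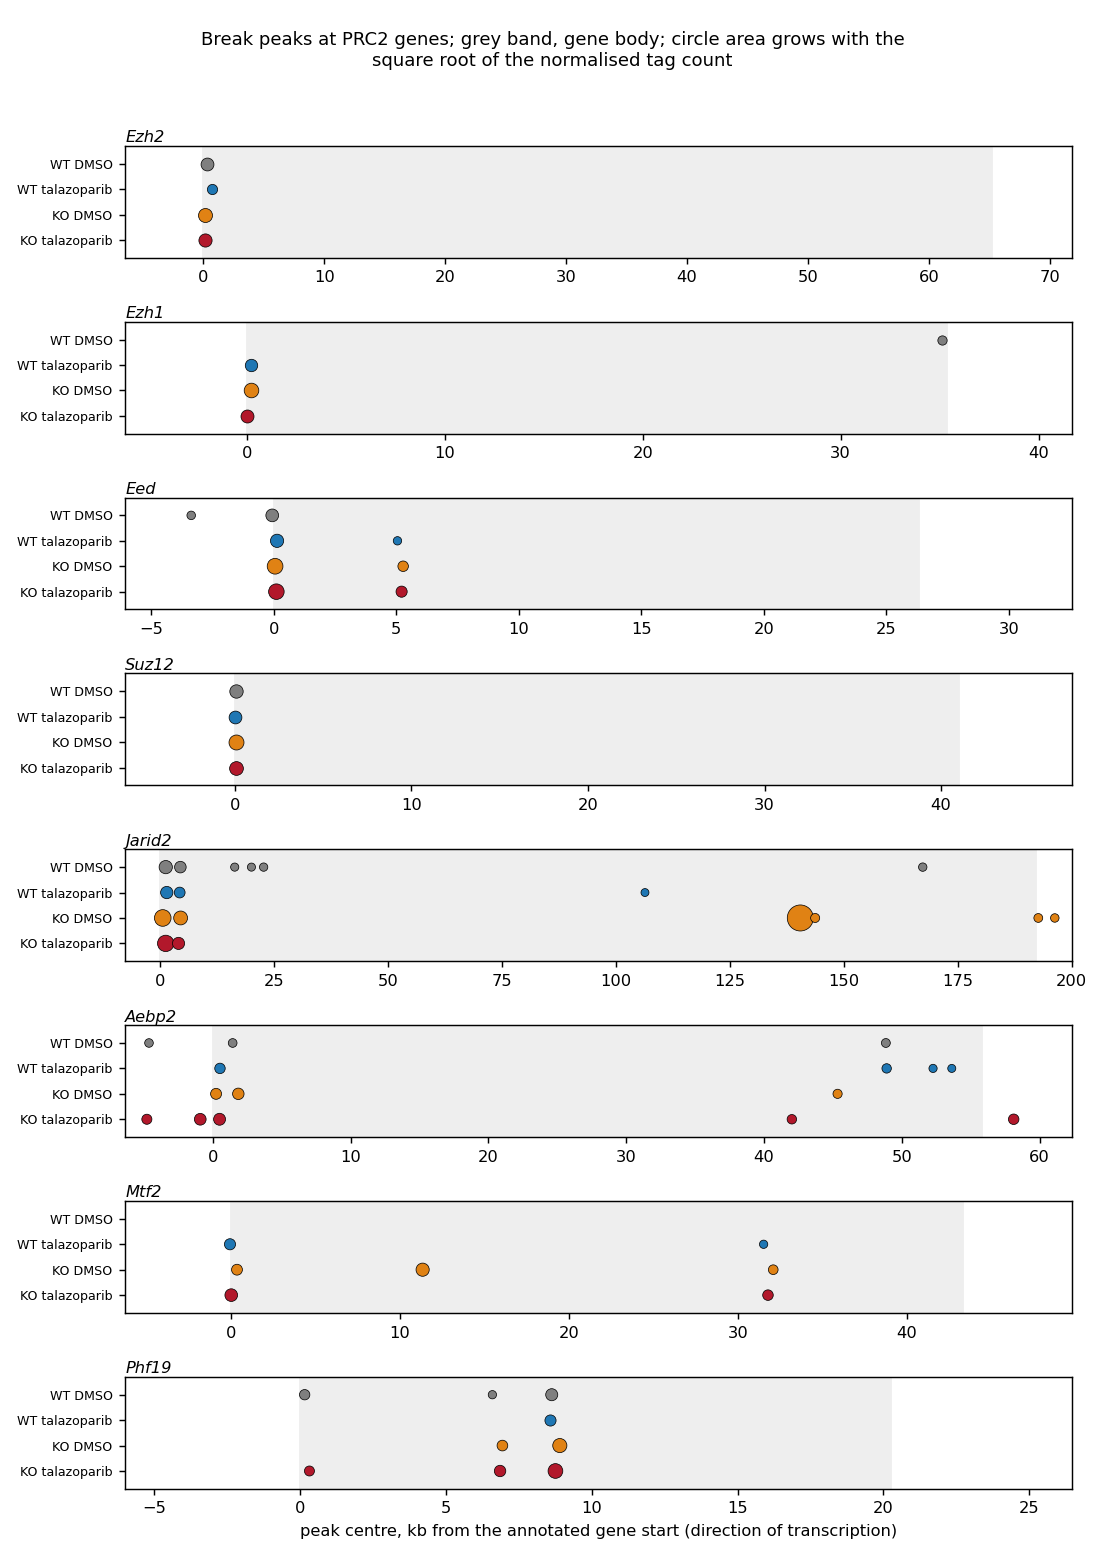
Position of every break peak at the 8 PRC2 genes, 1 panel per gene, with the distance of the peak's centre from the annotated gene start in kb on the horizontal axis and the 4 conditions as rows; the grey band is the gene body, and the circle area grows with the square root of the normalised tag count. Ezh2 and Suz12 have 1 circle per row at the start, Mtf2 has none in WT DMSO, and the large circle inside Jarid2 in KO DMSO is the peak with 164 input tags.

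Ezh2, the main methyltransferase of PRC2 in dividing cells, had its peaks in 1 region that covered the gene start (chr6:47594254-47595840). Normalised tag counts, given per 10000000 IP tags, were 17.9 with DMSO and 7.22 with Talazoparib in WT, and 25.2 and 19.8 in KO. The WT Talazoparib peak was the lowest, and it was also the shortest, at 767 bp against 1149 to 1496 bp, and ended inside the gene without reaching its annotated start. To take length into account, the tags per bp were divided by the mean over the genome, which gives a tag density. The density was 3.17 (95% interval 2.69 to 3.71) with DMSO and 2.49 (1.90 to 3.21) with Talazoparib in WT, and 4.95 (4.24 to 5.74) and 4.56 (3.82 to 5.41) in KO. The intervals of both KO lists lay above those of both WT lists. The median density of all peaks was also higher in KO, 2.53 with DMSO and 2.91 with Talazoparib, against 2.00 and 2.11 in WT. Among the peaks of its own list Ezh2 1 was at density percentile 82.4 with DMSO and 61.8 with Talazoparib in WT, and 91.5 and 75.2 in KO. By this rank KO Talazoparib was therefore not above WT DMSO.

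Ezh1, the paralogue that is more prominent in differentiated cells, had no peak at its start in WT DMSO. Its start region (chr11:101225632-101226894) had 15.6 tags in WT Talazoparib, and 29.8 with DMSO and 18.7 with Talazoparib in KO. Densities there were 6.60, 6.37 and 5.61, among the highest at the 8 genes, and their intervals overlapped. The WT DMSO list instead held a peak of 4.88 tags at the other end of the gene, in the last exon (chr11:101191090-101191590), which no other list held. An entry missing from a list does not show that the place had no tags, since each list holds only peaks of at least 4-fold over input.

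Suz12, the scaffold, had 1 region, and it covered the gene start and part of the first coding sequence (chr11:79992232-79994141). Tag counts were 20.9 with DMSO and 17.4 with Talazoparib in WT, and 32.9 and 23.4 in KO. The KO DMSO value was the highest, but that peak was also the longest, at 1909 bp against 882 to 1165 bp. Densities were 4.76 (4.09 to 5.50), 5.22 (4.41 to 6.14), 4.56 (3.99 to 5.20) and 5.32 (4.52 to 6.22), with intervals that all overlapped.

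Eed, the reader of the methylated histone, had its strongest region at the start (chr7:89979755-89982105), where the non-coding gene E230029C05Rik begins on the opposite strand. Tag counts were 17.2 with DMSO and 20.0 with Talazoparib in WT, and 40.0 and 38.1 in KO, so that both KO counts lay above both WT counts. Densities were 4.33 (3.66 to 5.08), 4.54 (3.88 to 5.28), 4.51 (3.99 to 5.07) and 6.40 (5.63 to 7.24). By density KO Talazoparib stood above the other lists, and KO DMSO did not differ from the WT lists beyond counting error, its peak being 2350 bp long. All peaks of the KO Talazoparib list also had the highest median density of the 4 lists. Relative to the median peak density of each list, Eed 2 in KO Talazoparib had ratios of 1.02 to WT Talazoparib and 1.23 to KO DMSO. Its density percentiles within the lists were 93.2, 89.1, 88.4 and 89.9. An intronic region centred 5042 to 5274 bp from the start, Eed 1, had 3.22 tags in WT Talazoparib, and 7.95 with DMSO and 10.1 with Talazoparib in KO, and was not listed in WT DMSO. That list held a peak of 3.51 tags upstream of Eed, inside E230029C05Rik, instead.

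Jarid2, which helps to bring PRC2 to chromatin, had 17 peaks in 11 regions over its 192170 bp. The region at the gene start, Jarid2 1 (chr13:44728353-44731713), had 20.2 tags with DMSO and 15.0 with Talazoparib in WT, and 49.8 and 47.0 in KO. The 2 KO values were the highest of any start peak at the 8 genes, over peaks of 3253 and 2165 bp. Densities were 3.57 (3.06 to 4.14), 5.14 (4.28 to 6.13), 4.05 (3.64 to 4.51) and 5.75 (5.13 to 6.42), higher in each genotype with Talazoparib than with DMSO. The intron region Jarid2 2 was centred at -594 to -135 bp from the start of a Jarid2 transcript not annotated as protein-coding. Jarid2 2 had 11.8, 8.89, 24.1 and 14.3 tags in the same order, with densities of 4.12 to 4.90 whose intervals overlapped. Apart from Jarid2 7, described with the input tags, the other 8 regions of Jarid2 were each in 1 list, 4 in WT DMSO, 1 in WT Talazoparib and 3 in KO DMSO, with 2.62 to 4.41 tags. The 2 of these that lay beyond the end of Jarid2 also fell in Dtnbp1, the gene next to it.

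Aebp2, a zinc-finger protein that pairs with Jarid2 in PRC2, had 15 peaks in 10 regions and none in all 4 lists. Its start region Aebp2 3 (chr6:140622646-140623525) had 7.81 tags in WT Talazoparib, and 9.47 with DMSO and 13.3 with Talazoparib in KO, and was not listed in WT DMSO. Aebp2 4, just downstream of it, had 3.79 tags in WT DMSO and 11.3 in KO DMSO, and the WT DMSO peak there was the most CpG-rich of all 68, at 14.4 CpGs per 100 bp. Aebp2 2, just upstream of the gene, had 12.4 tags in KO Talazoparib alone. The remaining regions had 2.74 to 7.98 tags. They included Aebp2 1 upstream (WT DMSO 3.62 and KO Talazoparib 6.77 tags) and the intronic Aebp2 7 (WT DMSO 4.08 and WT Talazoparib 5.13 tags), of which 83.2% and 75.1% of the bases were marked as repeats.

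Mtf2, a Polycomb-like protein that binds unmethylated CpG-rich DNA, had 3 regions and no peak in WT DMSO. Its start region (chr5:108065255-108066370) had 10.1 tags in WT Talazoparib, and 9.11 with DMSO and 16.8 with Talazoparib in KO, with densities of 3.52 (2.81 to 4.36), 3.75 (2.88 to 4.80) and 4.98 (4.10 to 5.99). An intron region, Mtf2 3, had 3.10, 5.78 and 8.13 tags in these lists. The WT Talazoparib and KO DMSO peaks of Mtf2 3 did not touch each other and were joined through the KO Talazoparib peak. Mtf2 2, another intron region of 1543 bp, had 19.7 tags in KO DMSO alone, with a density of 3.38 (2.84 to 4.00) against 3.75 at the gene's start in that list, and 53.8% of its bases were marked as repeats.

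Phf19, the other Polycomb-like protein, had its strongest region inside the gene and not at a coding start. Phf19 1 (chr2:34904426-34905910) was centred 8515 to 8850 bp from the coding start but at -554 to -219 bp from the nearest annotated start of any transcript. That transcript of the gene is not annotated as protein-coding. Phf19 1 had 13.8 tags with DMSO and 10.1 with Talazoparib in WT, and 26.1 and 30.7 in KO. Densities were 4.09 (3.39 to 4.89), 2.98 (2.38 to 3.69), 4.93 (4.24 to 5.71) and 7.05 (6.12 to 8.09). The KO Talazoparib density was the highest at the 8 genes apart from Jarid2 7, and its interval lay above those of the other lists. This ranking does not take into account that densities differed between whole lists. Among the peaks of its own list this peak was at density percentile 93.12. Ezh1 2 was higher in WT Talazoparib (97.16) and KO DMSO (97.15), as were Suz12 1 (95.39) and Eed 2 (93.19) in WT DMSO. Phf19 2, centred 6538 to 6882 bp from the coding start, had 3.10 tags in WT DMSO and was missing only from WT Talazoparib. In KO it had 8.53 tags with DMSO and 11.2 with Talazoparib. The start itself, Phf19 3, had 7.53 tags in WT DMSO and 6.55 in KO Talazoparib, and its peaks also touched the gene Gm13448.

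**Figure D2:**
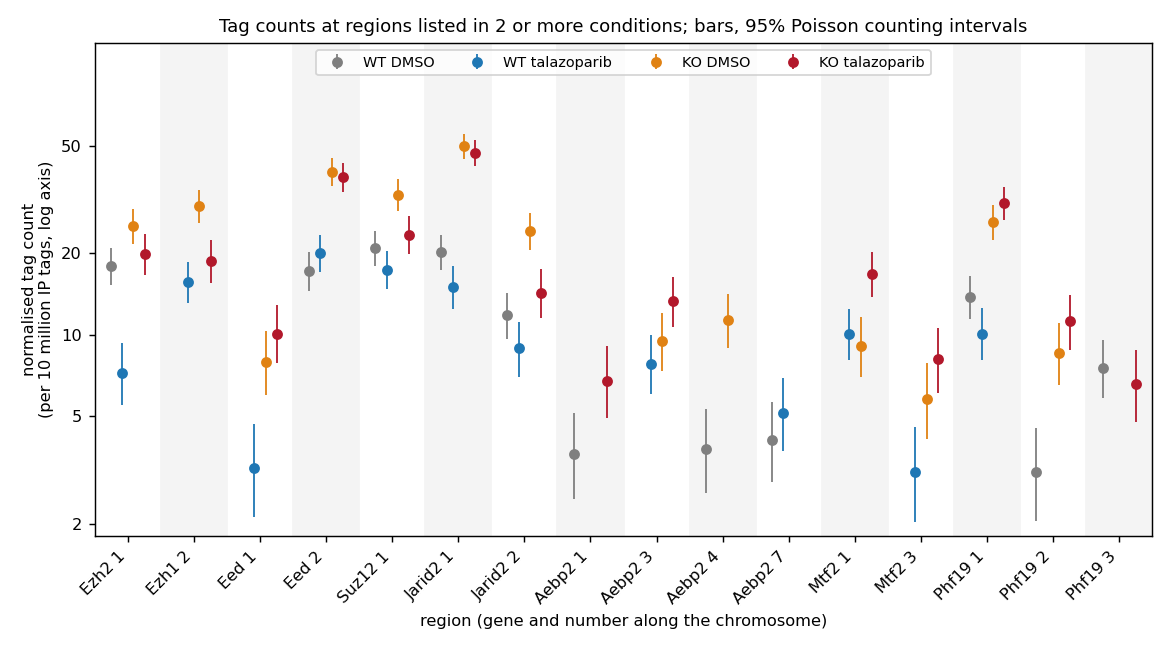
Normalised tag count per 10000000 IP tags (log axis) in each of the 4 conditions, for the 16 regions found in at least 2 lists; bars are exact 95% Poisson intervals of the estimated tags, which cover counting error only, and a missing point means that the list holds no peak there. Both KO points lie above both WT points at the 6 regions with 4 points (Ezh2 1, Eed 2, Suz12 1, Jarid2 1, Jarid2 2 and Phf19 1), and WT DMSO has no point at Ezh1 2, Eed 1, Aebp2 3, Mtf2 1 and Mtf2 3.

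The 34 regions were set beside all regions of the genome by the lists that held them. All regions include those outside genes, and regions at other genes or gene starts were not set apart. Whether the shares below are particular to PRC2 genes was therefore not tested. The 6 regions in all 4 lists were 17.6% of the 34, against 9.47% of all regions. They were Ezh2 1, Eed 2, Suz12 1, Jarid2 1, Jarid2 2 and Phf19 1. At all 6 the tag counts of both KO lists were above those of both WT lists, against 76.8% of the 5756 such regions of the genome. By tag density this held at 2 of the 6, Ezh2 1 and Phf19 1, against 73.3%. A further 5 regions, or 14.7%, were in every list but WT DMSO, against 1.96% of all regions: Ezh1 2, Eed 1, Aebp2 3, Mtf2 1 and Mtf2 3. Of these, 3 were gene starts. The WT DMSO list had the deepest input, 38100000 tags against 24500000 to 28300000, and a median fold over input of 5.15 against 5.22 to 7.16, and the part of this in the absence of those peaks was not tested. Regions in 1 list only were 18 of the 34, against 61.6% of all regions.

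Tag densities were compared between lists at the regions both held, as the ratio of the densities with an exact conditional binomial interval. These ratios compare pooled libraries, not conditions. For Talazoparib over DMSO in WT cells the 7 shared regions had a median ratio of 1.10, against 0.946 over 8261 regions of the genome. In KO cells the 12 shared regions had a median of 1.10, against 1.13 over 14004 regions. Relative to the median peak density of each list the members' medians were 1.04 in WT and 0.958 in KO, so that the KO value crossed 1. In WT cells, Jarid2 1 had the highest ratio, 1.44 (1.14 to 1.82), and Phf19 1 the lowest, 0.729 (0.548 to 0.974), and the intervals of the other 5 included 1. In KO cells Phf19 1 had 1.43 (1.16 to 1.75), Eed 2 had 1.42 (1.19 to 1.69) and Jarid2 1 had 1.42 (1.21 to 1.66), and the intervals of the other 9 included 1. Without division by length Eed 2 and Jarid2 1 in KO turned to 0.953 and 0.944, below 1, and Phf19 1 had 1.18. The WT direction also depended on the length of the peaks: not divided by length, the WT median was 0.753, against 0.824 over all regions. Then 2 of 7 regions were above 1 in place of 5. Of all regions shared by the WT lists, 33.3% were above 1 without division by length and 42.1% by density. Jarid2 1 moved from 1.44 to 0.743, its WT Talazoparib peak being 772 bp long and its WT DMSO peak 1498 bp.

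For KO over WT with DMSO the 8 shared regions had a median ratio of 1.14, against 1.27 over 14704 regions, and 2 of the 8 lay above the median of all regions. With Talazoparib the 11 shared regions had a median of 1.41, against 1.56 over 7901 regions, and 3 of the 11 lay above it. Ezh2 1 had ratios of 1.56 (1.25 to 1.95) with DMSO and 1.83 (1.34 to 2.51) with Talazoparib. Phf19 1 had 1.21 (0.955 to 1.54) and 2.36 (1.82 to 3.07). Suz12 1 had 0.959 (0.787 to 1.17) and 1.02 (0.804 to 1.28), and Ezh1 2 had 0.850 (0.657 to 1.09) with Talazoparib, and these intervals included 1. Relative to the median peak density of each list, Suz12 1 had 0.759 and 0.739, and Ezh1 2 had 0.617 with Talazoparib. On that scale Ezh2 1 had 1.24 and 1.33, and Phf19 1 had 0.954 and 1.72. The DMSO median at the 8 regions was then 0.901, below 1, against 1.01 over all regions. Without division by length it was 2.18, against 1.54. The sign of the KO and WT difference at these genes with DMSO therefore depended on the scaling. All 4 comparisons share lists with each other, and the ratios at 1 region are not independent.

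**Figure D3:**
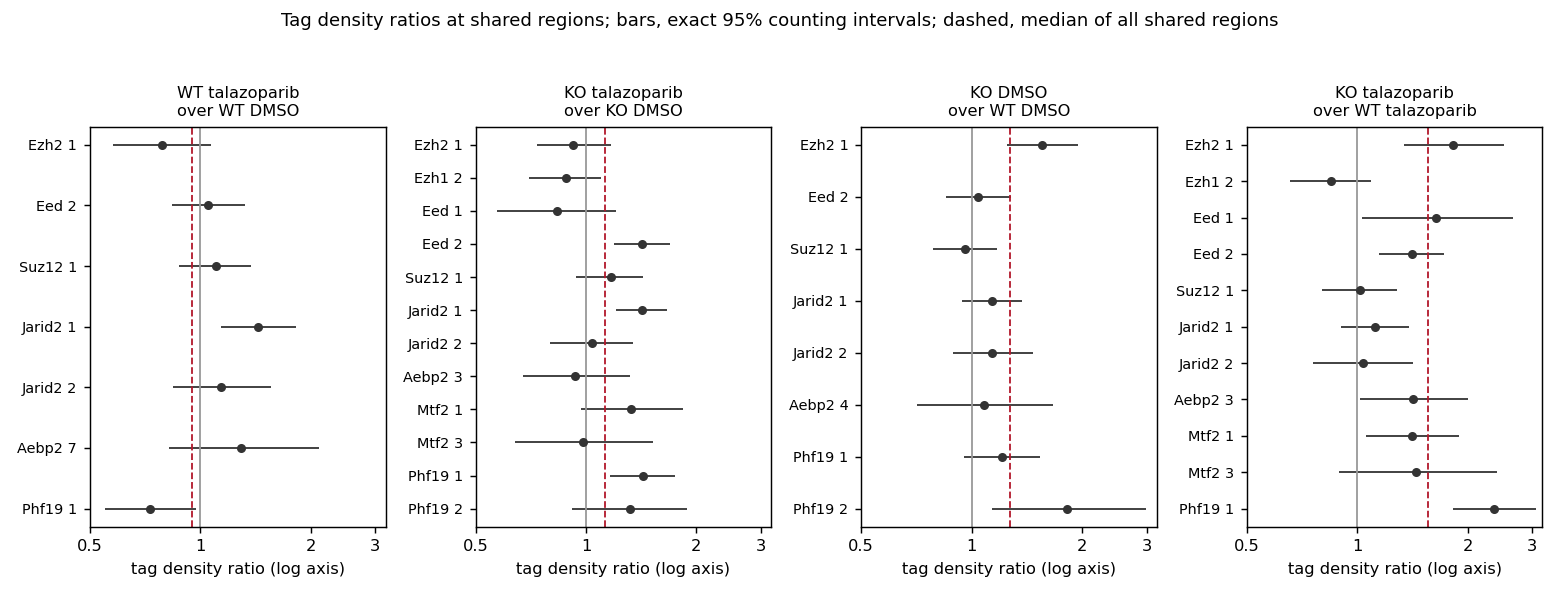
Ratio of tag densities (log axis) at the regions that both lists of a comparison held, 1 panel per comparison; points are regions, bars are exact 95% counting intervals, the grey line is a ratio of 1 and the dashed line is the median over all shared regions of the genome. In the KO over WT panels most points lie to the left of the dashed line, 6 of 8 with DMSO and 8 of 11 with Talazoparib.

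Peaks with very high input were sought because a place that collects reads in input DNA can enter a peak list through its read depth. A peak was marked where its input tags reached the 99th percentile of its list. By construction about 1 in 100 peaks did so: 1.05% with DMSO and 1.02% with Talazoparib in WT, and 1.00% and 1.01% in KO. At the PRC2 genes 2 peaks were marked, both in Jarid2 and both in KO DMSO. The start peak Jarid2 1 had 24.0 input tags over its 3253 bp, just past the limit of 21.7, and was not marked when input was counted per bp. The other was Jarid2 7, in an intron, centred 140422 bp from the gene's start (chr13:44869518-44870274), with 164 input tags, 300.3 normalised IP tags and a density of 105.2 times the genome mean. Its fold over input, 4.55, was near the limit of 4 and below the median of 6.35 of the list. The other 66 peaks had 0.5 to 16.0 input tags.

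The sequence of Jarid2 7 recurs in the genome. It is printed here from the plus strand of chr13:44869837-44869956, chosen after its values were seen, with CpGs in capitals, since its copies are what a reader would want to look up.
Jarid2 7: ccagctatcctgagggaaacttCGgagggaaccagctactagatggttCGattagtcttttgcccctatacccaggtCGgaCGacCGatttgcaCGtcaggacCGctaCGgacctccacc
A search of the genome with the whole peak found 16 other places aligned over at least 200 bases, at 90.9% to 98.9% identity. Of these, 6 had a peak in KO DMSO, 2 in KO Talazoparib, 1 in WT DMSO and 0 in WT Talazoparib. The copy with the most tags (chr16:57391113-57391526) had 321.3 IP tags with 141 input tags in KO DMSO, 284.7 with 195.5 in KO Talazoparib and 9.88 with 8 in WT DMSO. Without Jarid2 7 the 8 genes had 18 peaks in KO DMSO, and all 8 genes still had one.

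**Figure D4:**
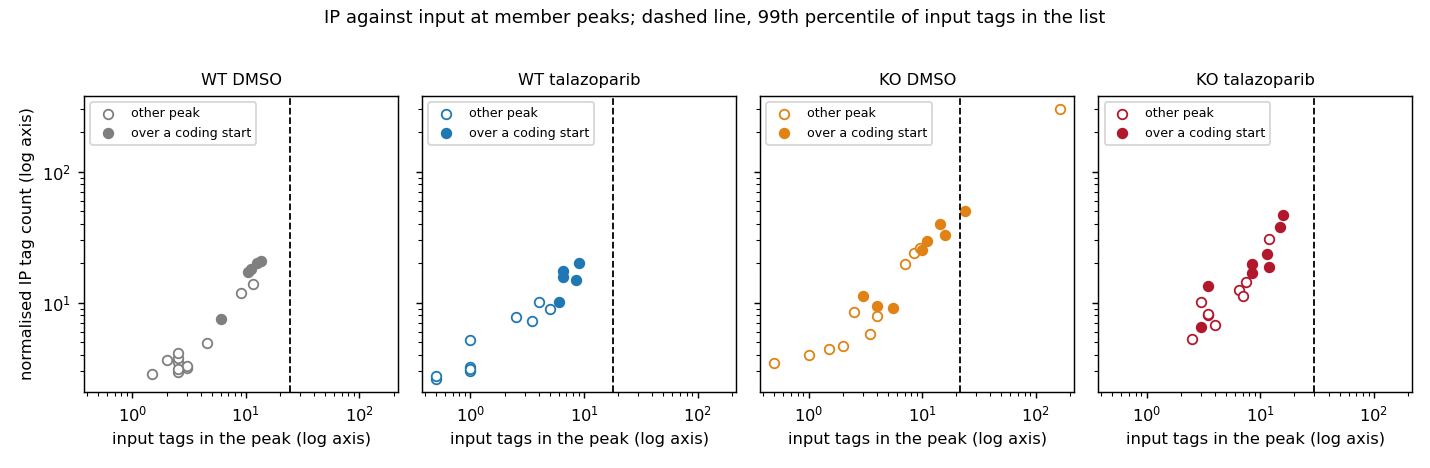
Normalised IP tag count against input tags of the 68 peaks at PRC2 genes (both axes log), 1 panel per condition; filled points cover a coding transcript start, and the dashed line is the 99th percentile of input tags in the list. All but 2 peaks lie left of the line, and Jarid2 7 stands alone at the top right of the KO DMSO panel with 164 input tags.

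The peaks at the 8 genes had a higher median CpG content than all peaks of their lists, though only slightly in WT DMSO. Among the peaks at the 8 genes, those over a coding start had the higher medians. Median CpG content was 2.20 per 100 bp in WT DMSO, 6.39 in WT Talazoparib, with 4.80 (DMSO) and 5.93 (Talazoparib) in KO, against 2.00, 3.18, 2.09 and 2.40 for all peaks of each list. Peaks over a coding start had medians of 10.7, 9.26, 6.35 and 7.82, and the other peaks 1.30, 0.80, 1.11 and 1.36. Start peaks also had more tags, with medians of 17.9, 15.6, 27.5 and 19.3 against 3.57, 4.18, 7.95 and 10.1 for the others. These are descriptions of peaks that share libraries, and several are the same place in different lists. Start peaks of other genes were not set beside those of the 8, so whether these values are particular to PRC2 genes was not tested. Jarid2 2 was rich in CpG away from coding starts (6.05 to 10.4 CpGs per 100 bp), whereas Phf19 1 combined high tag density with a moderate 3.14 to 4.01.

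**Figure D5:**
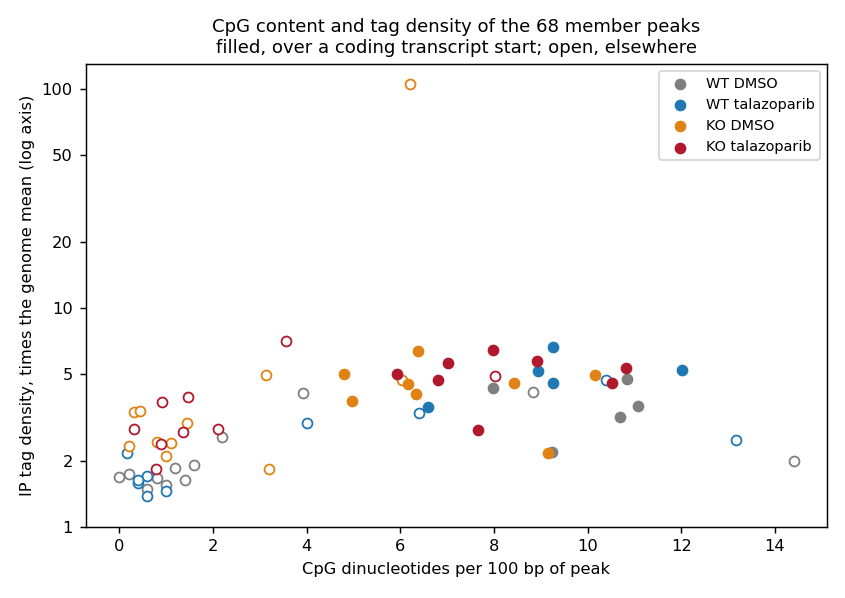
IP tag density relative to the genome mean (log axis) against CpGs per 100 bp for each of the 68 peaks at PRC2 genes, coloured by condition; filled points cover a coding transcript start and open points do not. Filled points lie mostly to the right, at medians of 6.35 to 10.7 CpGs per 100 bp, and the open point at a density of 105.2 is Jarid2 7.

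The 12 RefSeq promoter windows of the 8 genes, each from 250 bases before to 50 after a start, had 2 to 41 CpGs with a median of 23, against a median of 7 over all 32851 windows. Short letter motifs of factors known at CpG-rich promoters were searched on both strands. The GC box GGGCGG was in 7 of the 12 windows (35.7% of all windows) and CCAAT was in 7 (37.4%). The YY1 core AAGATGGCG was in 1 window, that of Phf19 (1.40% of all), and the ETS core CCGGAAG and the NRF1 core GCGCATGCG were in 0 of the 12 (8.86% and 1.75% of all). These are matches of letters in a window and do not show binding. The 2 windows that no list touched were that of Mtf2 at its downstream start, with 2 CpGs, and that of Aebp2 at its last start, with 4. Another Aebp2 window with 4 CpGs was touched in KO DMSO.

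The wider Polycomb machinery was followed in a list of 40 other genes, of which 39 are in the annotation used. A peak was present at 32 with DMSO and 36 with Talazoparib in WT, and 37 and 34 in KO, and at 30 in all 4 lists. These counts stand against the same shares of all genes as above. Per 100 kb they had 3.46, 2.44, 5.01 and 3.42 peaks, and the 8 PRC2 genes had 3.04, 2.68, 3.40 and 3.04. Among associated PRC2 subunits, 5, 6, 6 and 5 of 6 genes had a peak. Among the 25 genes of Polycomb repressive complex 1, which ubiquitinates histone H2A, 21, 24, 25 and 22 had one. Both H3K27 demethylase genes had a peak in every list, and 4, 4, 4 and 5 of 6 genes of the H2A deubiquitinase complex PR-DUB did.

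Rbbp4, a histone-binding partner of the PRC2 core, had the same peak counts as Eed, 2 in every list. Lcorl, an accessory gene of PRC2, and Pcgf1, a subunit of a variant PRC1, had 1 in every list, as Ezh2, Ezh1 and Suz12 did. The most peaks were found at Kdm2b, which brings variant PRC1 to CpG islands, with 7, 5, 17 and 6 in the same order of lists, and at Cbx7, a PRC1 subunit that binds methylated H3K27, with 10, 5, 10 and 5. Kdm6b, a demethylase of H3K27, shared the highest count in WT Talazoparib, 5. Phc2, Bcor, Kdm6b and Foxk1 shared the highest in KO Talazoparib with Kdm2b, 6.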

How the data were processed

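Single-strand break sequencing libraries of 4 conditions, each with 3 IP libraries and 1 input library, were used through the 4 peak tables the authors deposited, 1 per condition. Per the submitters' processing notes, Bowtie2 2.3.4.2, Picard 2.9.2, R 3.6 and HOMER 4.11 were used on mm10, with no role or order stated. Per the file headers, the deposited normalised tag count is a signal in IP tags per 10000000, and the tables also give input tags, a score, a fold ratio over input and a p-value per peak, of which the score served only to rank peaks. All peaks had a fold of at least 4. Coordinates are printed as in the tables, which do not say whether starts count from 0 or 1.

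Pooled totals were estimated from the 0.5-tag steps of values below 6. Densities, exact Poisson and conditional binomial intervals and counts were computed with Python 3.11.15, numpy 2.4.6, scipy 1.17.1, pandas 2.3.3 and samtools 1.23.1, after the code was tested on simulated data, and copies of a peak were sought with minimap2 2.31-r1302. The genome mean used 2648 Mb of sequenced bases. All members were named, and of the other Polycomb genes those with a member's 4 counts and, in each list, the 2 with most peaks, ties included. Shown sequences are of regions in all 4 lists, except Jarid2 7. Members and gene lists were chosen with earlier results of these data known. Alternatives were another window, threshold, overlap, list size, density scale and input limit.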

Additional observations from a re-analysis of the deposited data

Results flagged for a closer look

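The region Phf19 1, inside the gene of a Polycomb-like subunit of PRC2, had opposite Talazoparib over DMSO ratios of tag density in the 2 genotypes. In WT the ratio was 0.729 (95% counting interval 0.548 to 0.974), from 13.8 normalised tags with DMSO to 10.1 with Talazoparib. In KO it was 1.43 (1.16 to 1.75), from 26.1 to 30.7. Each ratio rests on 1 pooled list per condition, so the difference was not tested. Not divided by peak length, the ratios were 0.732 and 1.18. Over all shared regions the medians were 0.946 in WT and 1.13 in KO. Flow cells differed between the genotypes.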

How the results depend on the processing

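Of 117 recomputed values for 34 results, 21 moved: counts by over 1.5 times, and medians past a 95% interval taken from the ordered values of the members. That interval is wide, and within it the median density at peaks with at least 3 input tags was 3.37 in WT DMSO (2.01 as reported) and 4.62 in WT Talazoparib (2.98). The Talazoparib over DMSO median crossed 1 in WT without division by length (0.753) and in KO relative to each list's own median (0.958). With 1 kb on each side of the gene start as the window, the peaks at the 8 genes were 5 with DMSO and 6 with Talazoparib in WT, and 7 and 9 in KO. At a fold of at least 6 they were 6, 9, 11 and 9, with 0 regions in all 4 lists (0.999% of all regions). At that limit 4 of the 8 genes held a peak in WT DMSO, against 27.7% of all protein-coding genes. The other Polycomb genes with a peak were then 18 in WT Talazoparib and 20 in KO Talazoparib, against 31.3% and 25.1% of all genes. With at least 3 input tags the peaks were 10 in WT DMSO and 8 in WT Talazoparib. In WT DMSO they were 9 at a density of at least 2 and 7 among the 15544 best-scoring peaks of each list. The median KO over WT ratio with DMSO was 0.901 relative to each list's own median and 2.18 without division by length, and with Talazoparib 1.91 without division by length. Peaks of very high input in KO DMSO were 4 at the 95th percentile and 1 per bp. The added alternative without Jarid2 7, chosen after seeing the data, left 18 peaks. No paired analysis was possible because each list pools its replicates, and for the same reason no replicate could be left out. Counting intervals of weak peaks are wide: the 2.62 tags of Jarid2 6 had a density of 1.39 (0.869 to 2.10), which includes the genome mean.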
